A study of Mus musculus with 6 samples.

Results

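The cardiac myosin chains described here are 6 of the 18193 genes measured: the heavy chains Myh6 and Myh7 and the light chains Myl2, Myl3, Myl4 and Myl7. Each was represented by 1 probe set, the one with the highest mean over all 6 arrays among those annotated to that gene alone. Expression was measured on 6 Affymetrix arrays of total RNA from mouse heart cells (strain C57BL/6J), with 3 groups of 2 arrays. Neonatal cardiomyocytes and neonatal cardiac fibroblasts were taken on postnatal day 1, with both sexes listed, and separated by Percoll density medium. The adult cardiomyocytes came from hearts of 8-week-old males, released by Langendorff perfusion, so age, sex and isolation cannot be told apart between adult and neonatal cells. The labels name no mutation or drug in any group. They call the cells fresh, name trypsin and collagenase for dissociation, and also describe plating to part the cell types, with a mitochondrial dye as a check for leftover cardiomyocytes. They do not say whether animals were pooled or whether the arrays of a group were separate preparations, so the p-values rest on a spread between arrays that may be technical.

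Myosin is the motor of the thick filament. In each molecule a pair of heavy chains carries the ATPase heads, and each head binds an essential and a regulatory light chain that stiffen and tune its lever arm. In the mouse heart Myh6 encodes the fast alpha heavy chain and Myh7 the slower beta chain, which is used by the ventricle before birth and gives way to alpha around birth. Myl2 and Myl3 encode the ventricular regulatory and essential light chains, and Myl7 and Myl4 their atrial counterparts, which the early ventricle also uses.

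RefSeq lists transcription starts for all 6 genes (build GRCm38.p6). The 250 bases before 4 of those starts are shown, chosen to cover the different expression patterns. They belong to Myl3, which tracked Myh6 across the arrays, Myl7, which tracked Myl4, and the Myh6 and Myh7 pair, which differed from each other. Sequences read 5′ to 3′ on the gene's own strand, and capitals mark the motif matches. For Myh7 the more upstream of 2 listed starts is shown.
Myh6, chr14:54966608-54966857, minus strand: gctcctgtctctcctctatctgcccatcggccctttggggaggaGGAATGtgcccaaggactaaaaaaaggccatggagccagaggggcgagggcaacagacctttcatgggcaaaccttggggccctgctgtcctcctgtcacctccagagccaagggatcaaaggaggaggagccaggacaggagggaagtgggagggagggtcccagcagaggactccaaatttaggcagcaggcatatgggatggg
Myh7, chr14:54994627-54994876, minus strand: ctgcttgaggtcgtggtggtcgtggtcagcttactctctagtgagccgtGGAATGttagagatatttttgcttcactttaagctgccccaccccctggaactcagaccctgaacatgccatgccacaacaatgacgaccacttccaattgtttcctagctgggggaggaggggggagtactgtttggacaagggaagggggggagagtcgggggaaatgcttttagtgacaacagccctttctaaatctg
Myl3, chr9:110763428-110763677, plus strand: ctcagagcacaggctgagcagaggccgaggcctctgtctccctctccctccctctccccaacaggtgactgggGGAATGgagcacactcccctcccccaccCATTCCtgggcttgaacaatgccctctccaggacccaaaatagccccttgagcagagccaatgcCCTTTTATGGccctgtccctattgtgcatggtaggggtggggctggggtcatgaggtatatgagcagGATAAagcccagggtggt
Myl7, chr11:5898783-5899032, minus strand: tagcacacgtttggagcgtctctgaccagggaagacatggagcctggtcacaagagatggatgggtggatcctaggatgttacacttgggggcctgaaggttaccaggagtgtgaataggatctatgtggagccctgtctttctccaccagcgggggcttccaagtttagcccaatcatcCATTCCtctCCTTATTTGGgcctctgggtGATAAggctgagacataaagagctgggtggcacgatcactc
The motifs searched, on both strands, were CATTCC (the MCAT element of muscle genes), GATAA (GATA factors), TATAAA, the CArG box (serum response factor) and the MEF2 site. Myl3 and Myl7 each held 1 CArG box, starting 85 and 61 bases before the start, a motif found in 1.47% of 32851 such windows in the table. Both also held GATAA (22.6% of windows) and CATTCC (12.6%). Genes with like expression did not all share matches: the Myl4 window, not shown, held none of the motifs searched, although Myl4 tracked Myl7. Neither Myl2 window, also not shown, held a CArG box or CATTCC, although Myl2 tracked Myl3, and the more upstream one held GATAA. Myh6 and the Myh7 window shown each held 1 CATTCC match on the opposite strand, starting 206 and 201 bases before the start. The window of the more downstream Myh7 start, not shown, held none of the motifs searched. No match overlapped another, 0 MEF2 sites (2.92% of windows) were found in the windows of the 6 genes, and TATAAA (12.4%) matched only in 1 Myl2 window. These matches are descriptions of letters and were not tested for any function.

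Values are log2 RMA values (on this scale 1 unit is a doubling), means carry the SD of n = 2 arrays, and differences carry the standard error (SE) from limma. For replicate 1 of both neonatal groups the title contradicts the source name, cell type field and description, giving fibroblasts for cardiomyocytes and the reverse. The source name was followed. On the array grouped as neonatal cardiomyocyte replicate 1, the median of 10 cardiomyocyte markers outside the myosins (such as Tnni3 and Ryr2) was 13.32. It was 12.54 on replicate 2, at 6.40 and 9.25 in fibroblasts, and at 13.34 and 13.52 in adult cells. For 12 fibroblast markers the medians were 9.31 and 8.93 in neonatal cardiomyocytes, 12.14 and 11.46 in fibroblasts, and 7.77 and 9.40 in adult cells. Of the 10 leukocyte markers 10 were higher on fibroblast replicate 1 than on replicate 2. Adult replicate 2 was higher than adult replicate 1 in 11 of 12 atrial, 11 of 12 fibroblast, 9 of 10 endothelial, 10 of 10 leukocyte and 9 of 10 smooth muscle and pericyte markers. In bulk RNA, fewer cells of a type and less RNA per cell cannot be told apart.

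**Figure D1:**
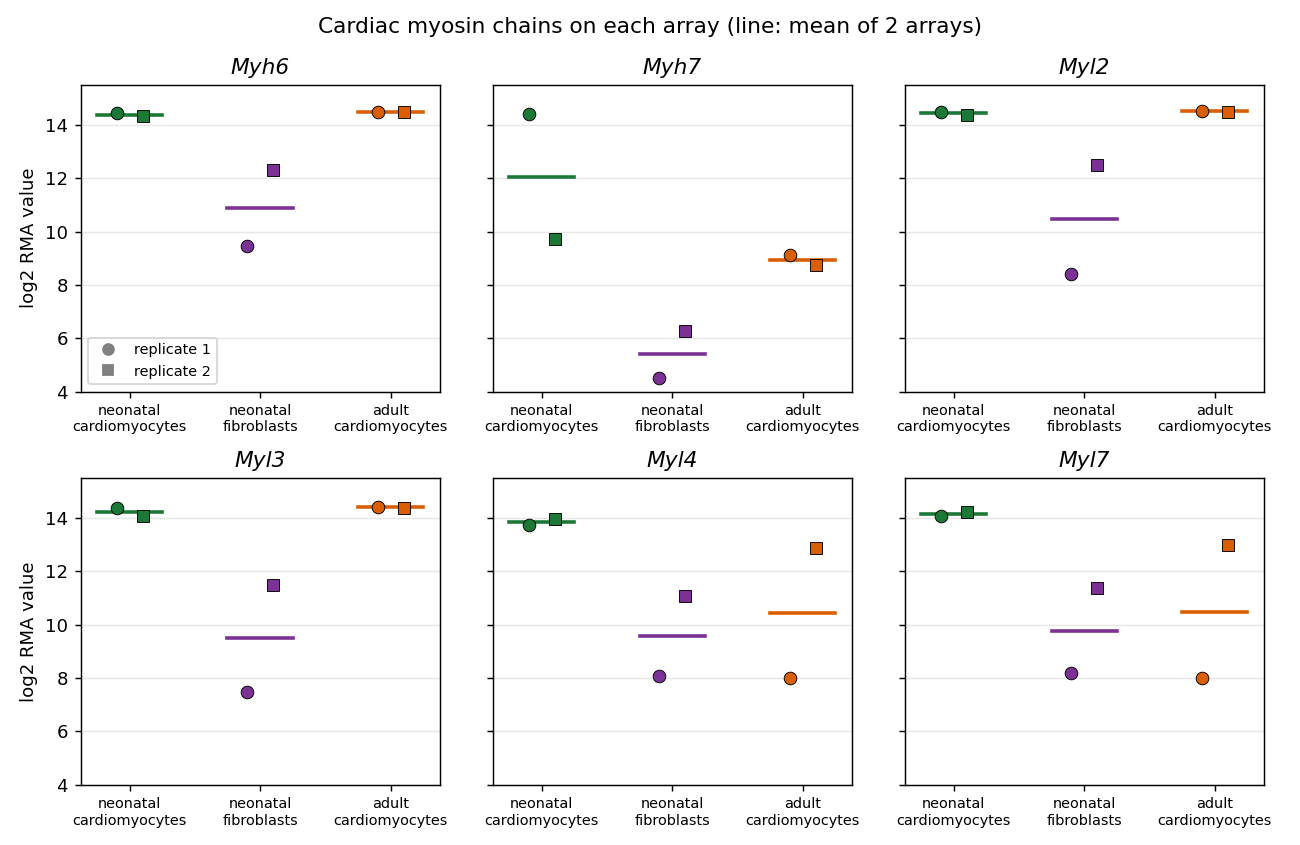
Log2 RMA value (vertical axis) of each myosin gene on each of the 6 arrays, by group; circles are replicate 1, squares replicate 2 and lines the mean of the 2 arrays. Myh6, Myl2 and Myl3 lie above 14 on all 4 cardiomyocyte arrays, while Myh7 splits the neonatal pair (14.41 and 9.70) and Myl4 and Myl7 split the adult pair (8.02 and 12.89, 8.01 and 12.98).

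The heavy chain gene Myh6 measured 14.44 and 14.33 in neonatal cardiomyocytes, 14.48 and 14.49 in adult ones, and 9.47 and 12.31 in fibroblasts. It was thus high on every cardiomyocyte array, and the fibroblast arrays lay below and apart from each other. The highest value of any probe set was between 14.41 and 14.60 on each array. Myh6, Myl2 and Myl3 in cardiomyocytes, and Myh7 on neonatal cardiomyocyte replicate 1, thus lay close to the top of the measured range. Myl7 in neonatal cardiomyocytes, at 14.09 and 14.23, did too, and Myl4 there, at 13.73 and 13.96, lay slightly lower. The files hold no saturation flag, so whether these probe sets were saturated was not tested, and their fold differences and small differences between ages may be too small. As measured by this probe set, adult cardiomyocytes were 12.0-fold above fibroblasts, a rise of 3.59 ± 0.90 (SE, limma adjusted p = 0.0473, or 0.0619 over probe sets). Neonatal cardiomyocytes were 11.3-fold above fibroblasts, with a difference of 3.49 ± 0.90 that missed the threshold (adjusted p = 0.152). Adult and neonatal cardiomyocytes differed by 0.09 ± 0.90 (adjusted p = 0.959). A second, lower-reading Myh6 probe set gave 122-fold for adult cells against fibroblasts. Its fibroblast values, 3.59 and 3.43, lay below the median of all probe sets (between 5.60 and 5.67 on each array), so this size is uncertain too.

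Myh7, the beta heavy chain, split the neonatal cardiomyocytes: 14.41 on replicate 1 and 9.70 on replicate 2. It measured 9.11 and 8.76 in adult cardiomyocytes and 4.51 and 6.27 on the fibroblast arrays. The adult arrays therefore lay just below neonatal replicate 2 and far below neonatal replicate 1, with no overlap. The mean was 12.06 ± 3.33 in neonatal and 8.94 ± 0.25 in adult cardiomyocytes, and the difference was −3.12 ± 1.57 (adjusted p = 0.303). Without neonatal replicate 1 it was −0.77, and without neonatal replicate 2 it was −5.48 (adjusted p = 0.592 and 0.0901). Only 16 genes, Myh7 included, had a gap between the neonatal cardiomyocyte arrays at least as large as its 4.71, or 0.0879% of all genes. Against fibroblasts the difference was 6.67 ± 1.57 for neonatal cells (adjusted p = 0.129) and 3.55 ± 1.57 for adult cells (0.172).

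On the same neonatal arrays, replicate 2 was lower than replicate 1 for 8 of 10 cardiomyocyte markers (median −0.44) and 6 of 10 ventricular markers (−1.16). It was lower for 8 of 10 endothelial markers (−1.67) and 10 of 10 leukocyte markers (−1.43). It was higher for 5 of 12 atrial (median −0.19), 5 of 12 fibroblast (−0.58) and 4 of 10 smooth muscle and pericyte markers (−0.57). The median over all genes was 0.01. Of the ventricular markers, the transcription factor genes Irx4 and Hey2 measured 8.46 and 6.45, and 9.83 and 6.02, and Irx5 was higher on replicate 2 by 1.71, while Lmod2, Hand1 and Gja1 were higher by 0.71, 0.28 and 0.12. The part of these in the Myh7 gap was not tested. Of the other myosin chains, Myh7b, which hosts a muscle microRNA, measured 8.17 and 5.87 here, 8.51 and 6.86 in adult cells and 5.18 and 5.05 in fibroblasts.

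The probe sets of the heavy chains disagreed. A second Myh6 probe set, 1417729_at, measured 11.57 and 7.63 in neonatal cardiomyocytes, 12.07 and 8.82 in adult ones, and 3.59 and 3.43 on the fibroblast arrays. Both ages thus had a high replicate 1 and a low replicate 2, by 3.93 and 3.25, where the probe set used, 1448826_at, differed by 0.11 and −0.01. Of 2 probe sets that the annotation assigns to both heavy chains, 1448827_s_at followed the first pattern (12.31, 7.91, 12.23 and 9.21 on the same 4 arrays). The other, 1448554_s_at, followed the second (14.44, 14.01, 14.20 and 14.42). For the second Myh6 probe set the difference from fibroblasts was 6.09 ± 1.61 in neonatal and 6.94 ± 1.61 in adult cells, and the adult difference had an adjusted p of 0.0514 over 45037 probe sets. Myh7 had 1 probe set of its own, 1448553_at, and no other to set beside it. Myh6 and Myh7 are close paralogs, and in the 2 shared probe sets their signals cannot be told apart.

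**Figure D2:**
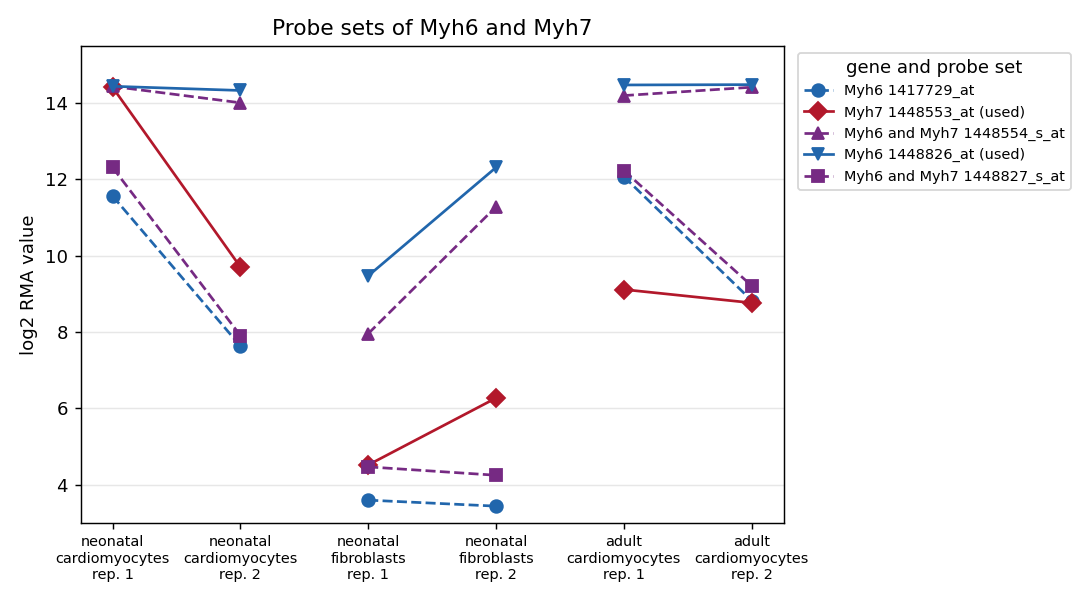
Log2 RMA value (vertical axis) of the 5 probe sets annotated to Myh6, to Myh7 or to both, on each array; lines join the 2 arrays of a group, solid for the probe sets used. The second Myh6 probe set and 1 shared set are lower on replicate 2 by 3.02 to 4.41 in both cardiomyocyte groups, while the Myh6 probe set used differs by at most 0.11.

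The difference Myh6 minus Myh7 was taken within each array. Only its change between groups has a meaning, since levels of different probe sets are not comparable. It was 0.03 and 4.63 in neonatal cardiomyocytes, 5.36 and 5.72 in adult ones, and 4.96 and 6.05 in fibroblasts. Neonatal cardiomyocyte replicate 1 stood apart from every other array, and replicate 2 lay just below the rest. The adult mean exceeded the neonatal mean by 3.21 (exact two-sided permutation p = 0.333, the smallest that 2 against 2 arrays allow). It did so by 0.91 without neonatal cardiomyocyte replicate 1 and by 5.51 without replicate 2. On neonatal replicate 1 both genes lay near the top of the range, where a difference between them may be lost.

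The ventricular light chains followed Myh6. Myl2, the regulatory chain, measured 14.50 and 14.38 in neonatal cardiomyocytes, 14.52 and 14.50 in adult ones, and 8.41 and 12.50 on the fibroblast arrays. All cardiomyocyte arrays lay between 14.38 and 14.52, and fibroblast replicate 2 lay between them and replicate 1. The difference from fibroblasts was 3.98 ± 1.28 for neonatal cells (adjusted p = 0.226) and 4.06 ± 1.28 for adult cells (adjusted p = 0.0838), and that between ages was 0.07 ± 1.28 (0.977).

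Myl3, the essential chain, measured 14.36 and 14.07 in neonatal cardiomyocytes, 14.43 and 14.40 in adult ones, and 7.49 and 11.49 on the fibroblast arrays. The groups did not overlap, although adult replicate 2 lay just above neonatal cardiomyocyte replicate 1. As measured by this probe set, adult cells rose 30.3-fold above fibroblasts, by 4.92 ± 1.25 (adjusted p = 0.0496); a lower-reading Myl3 probe set gave 46.3-fold. The neonatal difference was 4.73 ± 1.25 (adjusted p = 0.163), and that between ages 0.20 ± 1.25 (0.936). The other 2 Myl3 probe sets gave adult differences from fibroblasts of 5.53 and 5.11 (adjusted p = 0.0205 and 0.0456 over probe sets, against 0.0646 for the one used) and differences between ages of 0.74 and 0.41.

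The atrial light chains were high in newborn cells and split the adult pair. Myl7, the regulatory chain, measured 14.09 and 14.23 in neonatal cardiomyocytes, 8.01 and 12.98 in adult ones, and 8.20 and 11.37 on the fibroblast arrays. Adult replicate 1 lay at the level of fibroblast replicate 1, and adult replicate 2 above both fibroblast arrays, so those groups overlapped. Both adult arrays lay below both neonatal cardiomyocyte arrays. The difference between ages was −3.67 ± 1.84 (12.7-fold lower in adult cells, adjusted p = 0.302). It was −6.15 without adult replicate 2 and −1.18 without adult replicate 1 (adjusted p = 0.208 and 0.757).

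Myl4, the essential chain, measured 13.73 and 13.96, 8.02 and 12.89, and 8.07 and 11.09 in that order of groups. It repeated the Myl7 pattern on every array. The difference between ages was −3.39 ± 1.79 (adjusted p = 0.320), −5.82 without adult replicate 2 and −0.95 without adult replicate 1 (0.209 and 0.796). A second Myl4 probe set measured 6.39 and 6.38 in adult cells, 6.43 and 7.67 in neonatal cardiomyocytes and 5.27 on each fibroblast array. It thus lacked the gap between the adult arrays, but it read lower than the probe set used on every array. Its fibroblast values lay below the median of all probe sets, between 5.60 and 5.67 on each array. Whether this probe set responds enough to show such a gap was not tested. Against fibroblasts, neonatal cells differed by 4.38 ± 1.84 for Myl7 and 4.27 ± 1.79 for Myl4 (adjusted p = 0.333 and 0.332). Adult cells differed by 0.71 and 0.88 (0.801 and 0.746), with the opposite sign in both genes without adult replicate 2 (−1.78 and −1.56) or without fibroblast replicate 1 (−0.88 and −0.63).

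Of all 18193 genes, the 3 with the largest gap between the adult arrays were Sln, Myl7 and Myl4, at 5.96, 4.97 and 4.87 higher on replicate 2. Sln encodes sarcolipin, an atrial regulator of the calcium pump, and measured 6.04 and 11.99. The fifth was Mybphl, an atrial myosin-binding protein gene, at 5.36 and 9.19, and the atrial natriuretic peptide gene Nppa measured 11.11 and 13.84. These ranks are descriptions, and Sln, Mybphl and Nppa belong to the list of 12 atrial markers, whose median gap was 1.71. The atrial genes Bmp10, Gja5 and Kcnj3 differed by 0.14, 0.0044 and 0.14. The median gap was 0.03 for the 10 ventricular markers and −0.04 for the 10 cardiomyocyte markers, while it was 1.90 for fibroblast, 1.55 for leukocyte, 1.26 for smooth muscle and pericyte and 1.10 for endothelial markers. The median over all genes was 0.01. The part of atrial or other cells in the Myl4 and Myl7 values was not tested.

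**Figure D3:**
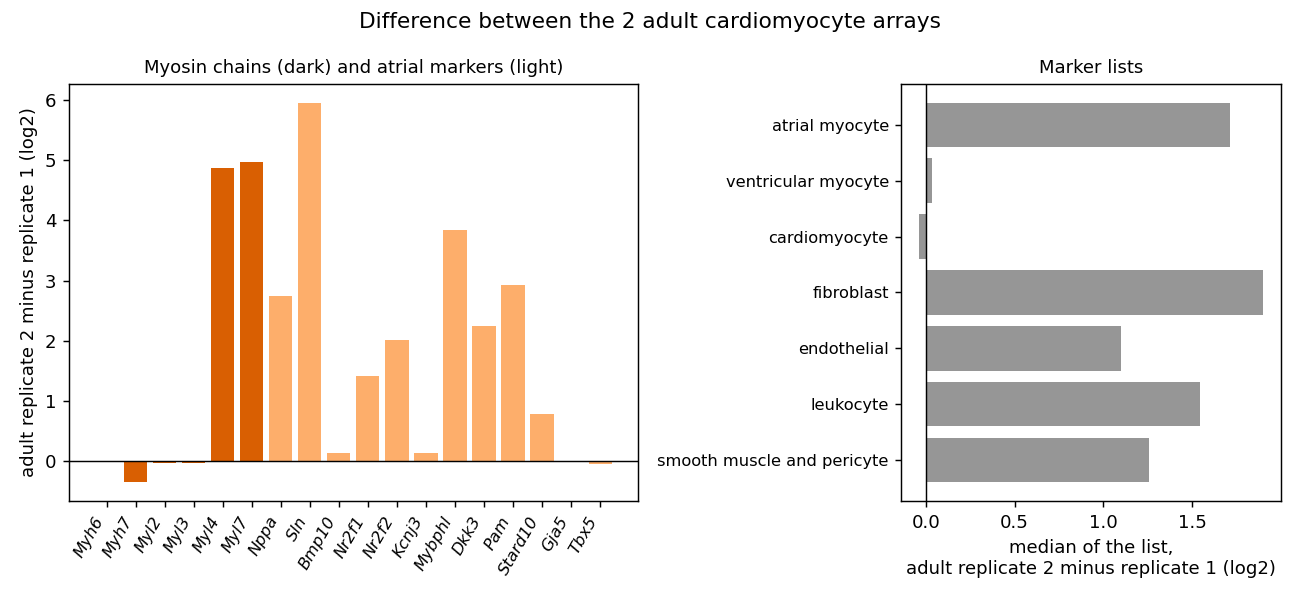
Adult cardiomyocyte replicate 2 minus replicate 1 in log2 units, for the 6 myosin chains (dark bars) and 12 atrial markers (light bars) on the left, and as the median of each marker list on the right. Myl4 and Myl7 lie at 4.87 and 4.97 beside Sln at 5.96, while the other 4 myosin chains lie between −0.35 and 0.01.

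The paired light chain contrasts moved together. Myl7 minus Myl2 was −0.41 and −0.15 in neonatal cardiomyocytes and −6.52 and −1.53 in adult ones, and Myl4 minus Myl3 was −0.64 and −0.11 against −6.41 and −1.51. On both adult arrays the atrial chain was thus lower relative to its ventricular partner than on either neonatal array. The changes were −3.74 and −3.58 (exact two-sided permutation p = 0.333 each, the smallest these arrays allow). Without adult replicate 1 they were −1.25 and −1.13, and without adult replicate 2 −6.24 and −6.03. In neonatal cardiomyocytes both chains of each pair lay near the top of the range. A difference between them may be lost there, so the size of these changes is uncertain. Neonatal cardiomyocytes and fibroblasts differed by 0.39 and −0.46 in these contrasts (exact two-sided permutation p = 0.667 each), less than the SD of 0.65 and 0.69 between the fibroblast arrays.

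All 6 myosin chains were higher on fibroblast replicate 2 than on replicate 1, from 1.75 for Myh7, through 2.84 for Myh6, 3.01 for Myl4 and 3.17 for Myl7, to 4.09 for Myl2. Of all genes, 15, Myl2 included, had a gap between these arrays at least that large. The 10 cardiomyocyte markers were all higher on replicate 2 as well, with a median gap of 2.66 against 0.03 over all genes, and Tnni3 measured 6.07 and 10.86. So by the probe sets used, the level of each myosin chain on the fibroblast arrays depended on the array. The second Myh6 and Myl4 probe sets lacked this gap (3.59 and 3.43, 5.27 on each array), as did the shared 1448827_s_at (4.46 and 4.24). These values lay below the median of all probe sets. Both other Myl3 probe sets (6.74 and 9.36, 7.38 and 10.92) and the shared 1448554_s_at (7.96 and 11.28) had the gap. The part of cardiomyocyte RNA in these values was not tested.

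Set beside all genes, 0 of the 6 myosin chains passed the limma threshold between neonatal cardiomyocytes and fibroblasts, where 0.819% of genes did. At unadjusted p under 0.05, limma passed 4 of 6, against 16.3% of genes. All 6 had non-overlapping arrays and higher values in cardiomyocytes, against 22.3% of genes, and a median difference of 4.32 against −0.02. Leaving out fibroblast replicate 2 gave differences of 6.03 for Myl2 and 6.72 for Myl3. Leaving out neonatal cardiomyocyte replicate 2 gave 9.02 for Myh7. Between adult and neonatal cardiomyocytes, limma called 0 of 6, and 0 at unadjusted p under 0.05, against 2.3% and 22.8% of genes. The arrays did not overlap for any of the 6, against 57.7% of genes, although for Myl2 the nearest adult and neonatal values were both 14.5019 at the precision kept, so its order cannot be read. Myh6, Myl2 and Myl3 were higher in adult cells, as were 33.9% of genes, and Myh7, Myl4 and Myl7 lower, as were 23.8%.

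Between adult cardiomyocytes and fibroblasts, 2 of 6 rose (Myh6 and Myl3), where 10.1% of genes rose and 21% were called. At unadjusted p under 0.05 limma passed 3 of 6, against 37% of genes, and 4 of 6 had non-overlapping, higher arrays, against 37.8%. With only these 2 groups in the fit 1 was called (Myh7, at adjusted p = 0.0284), against 3823 of all genes. Without either adult array the calls of Myh6 and Myl3 were lost, as were most or all calls over all genes. Leaving out a fibroblast array gave differences of 2.01 or 6.10 for Myl2 and 2.92 or 6.92 for Myl3. The count was 0 with the groups the titles give (0 at unadjusted p under 0.05), against 137 of all genes. It was 0 (3 at unadjusted p under 0.05) when the values were quantile-normalized again, against 3709 of all genes. Myh6 and Myl3 then had adjusted p of 0.0590 and 0.0524. The comparisons share arrays, so the counts are not independent of each other.

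**Figure D4:**
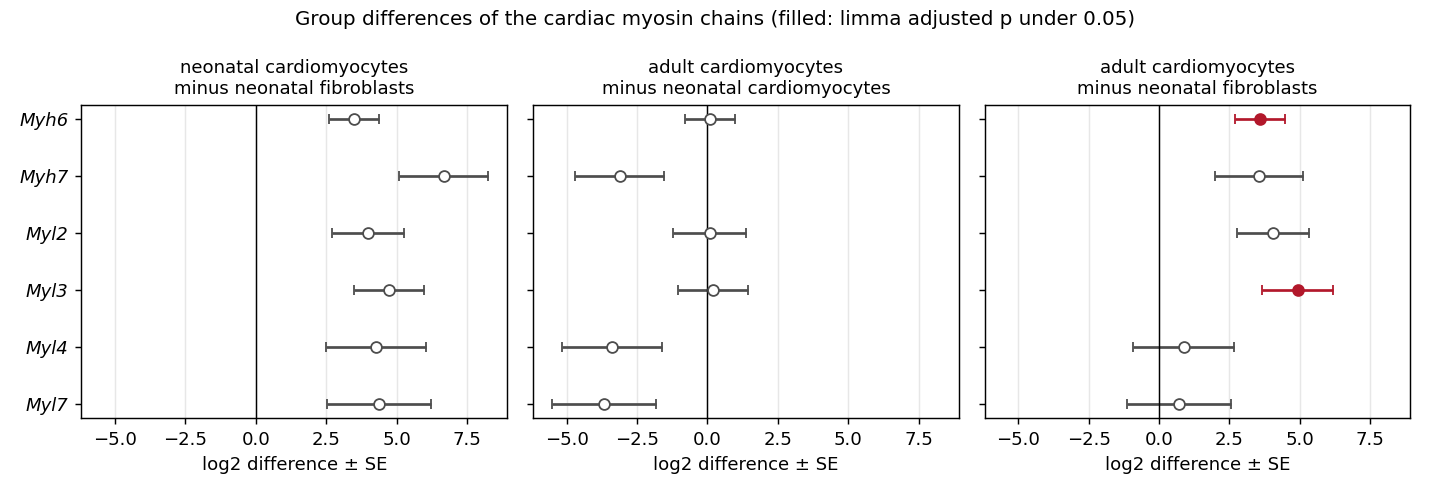
Log2 difference with its limma SE (horizontal axis) for the 6 myosin chains in the 3 group comparisons, filled where the limma adjusted p was under 0.05. Myh6 and Myl3 pass only against fibroblasts in adult cells (3.59 and 4.92), and Myh7, Myl4 and Myl7 lie between −3.67 and −3.12 between the ages.

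Likeness across the 6 arrays was described by Pearson's r among the 2546 genes with an SD of at least 1. The arrays form 3 groups of 2, and all values of an array share its hybridisation. Myh6 was most like Myl3 (r = 0.9997), then cardiac actin Actc1, the M-band gene Myom1 and the troponin C gene Tnnc1 (0.9989, 0.9989 and 0.9988). Myl3 was most like Myh6, Myom1, Tnnc1 and Tnni3 (0.9981 for the last), and Myl2 like Tnnc1, Tnni3, Myl3 and Myh6 (0.9949 to 0.9974). Myl4 and Myl7 were most like each other (0.9993), then Sln (0.988 and 0.982) and Nppa (0.981 and 0.975), followed by Ramp1 for Myl4 (0.942) and Mboat2 for Myl7 (0.941). Myh7 was most like the T-type calcium channel gene Cacna1h (0.990), Proser2 (0.984), the transcription factor gene Tbx5 (0.971) and Aldh1b1 (0.971). Its r with the other myosin chains lay between 0.639 and 0.771.

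The other 8 measured sarcomeric chains include skeletal isoforms. Myh8, the perinatal skeletal heavy chain, measured 6.42 and 6.21 in neonatal cardiomyocytes, 4.05 and 4.06 in fibroblasts, and 4.08 and 4.10 in adult cells. Its arrays were tight within each group, and it stood above the others only in newborn cardiomyocytes. The fibroblast and adult values lay below the median of all probe sets, which was between 5.60 and 5.67 on each array. Whether Myh8 was detected there was not tested. In newborn cardiomyocytes Myh8 rose 4.79-fold over fibroblasts (2.26 ± 0.17, limma adjusted p = 0.0424). It fell by 2.22 ± 0.17 on the log2 scale in adult cells (adjusted p = 0.0182). The first call was lost on leaving out an adult array, or replicate 1 of either neonatal group, with differences between 2.15 and 2.26. With only the 2 neonatal groups in the fit it was lost along with every call over all genes. Without neonatal cardiomyocyte replicate 2 or either adult array the second call was lost, with differences between −2.33 and −2.21. Every call over all genes between the ages was lost there too. In this list Myh8 was the only call in each of these comparisons, where 0.819% and 2.3% of all genes were called. Against fibroblasts, 2 of these 8 rose in adult cells, where 10.1% of all genes did. They were Myl1, a skeletal essential light chain, by 2.92 (9.36 and 10.71 against 6.22 and 8.01), and Mylpf by 0.90. Myl1 measured 12.12 and 11.81 in neonatal cardiomyocytes.

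Among 10 measured genes of the kinases and the phosphatase that act on light chains, 0 were called between the neonatal cell types (6 at unadjusted p under 0.05 in limma, against 16.3% of all genes) and 0 between the ages (2 at unadjusted p under 0.05, against 22.8%). In adult cells against fibroblasts 3 rose, where 10.1% of all genes did, and 0 fell, with a median of 0.17 against 0.09 over all genes. These were Mylk4 (5.64), the cardiac light chain kinase gene Mylk3 (4.99) and the phosphatase subunit gene Ppp1r12b (2.35). Mylk3 measured 11.65 and 11.61 in neonatal cardiomyocytes, 11.66 and 12.02 in adult ones, and 5.64 and 8.07 on the fibroblast arrays. Mylk4 measured 6.41 and 7.96, 9.82 and 9.46, and 3.55 and 4.45. Mylk3 was thus high at both ages, and Mylk4 was highest in the adult arrays.

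Of 11 measured thick filament partners, 0 were called between the neonatal cell types (7 at unadjusted p under 0.05 in limma), against 0.819% and 16.3% of all genes. Between the ages 0 were called (3 at unadjusted p under 0.05), against 2.3% and 22.8% of all genes. Against fibroblasts 6 rose in adult cells, where 10.1% of all genes did, and 0 fell, with a median of 3.17 against 0.09 over all genes. The largest were the M-band gene Myom2 (6.17), Trim54 (5.82), titin, Ttn (4.86), and Myom1 (4.61). Of 7 measured chaperones and turnover genes, 3 rose in neonatal cells against fibroblasts: the muscle methyltransferase gene Smyd1 (4.75), the myosin chaperone gene Unc45b (4.34) and the ubiquitin ligase gene Fbxo32 (2.47). Of all genes 0.819% were called in that comparison. The count was 0 without either adult array or without replicate 1 of either neonatal group (4 at unadjusted p under 0.05 in limma each time), and 1 without neonatal cardiomyocyte replicate 2 (Unc45b). In adult cells 4 rose against fibroblasts, where 10.1% of all genes did: Smyd1 (5.08), Fbxo32 (4.45), the ligase gene Trim63, which acts on myosin (4.39), and Unc45b (4.35), and Hsp90aa1 fell by 0.96, named after its value was seen. Between the ages Fbxo32 alone of this list rose, from 8.73 ± 0.12 to 10.71 ± 0.42 (1.98 ± 0.25 SE, adjusted p = 0.0335), where 2.3% of all genes were called. That call was lost without any 1 of the 6 arrays, where most or all calls over all genes were lost too. The difference then lay between 1.68 and 2.28. Without adult replicate 1 every call of these 4 lists in adult cells against fibroblasts was lost, and without adult replicate 2 most were. The same held for the calls over all genes.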

How the data were processed

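Total RNA of 6 samples, 2 per group, was measured on Affymetrix arrays. The values the authors deposited are log2 values per probe set, made with RMA per the submitters' processing notes (background correction, quantile normalization, summary of probes). Its version, the genome build, and whether the arrays were processed together are not given in the sources used here. RMA gives no detection call, and the number of arrays limits the precision. Of 45101 probe sets, 64 are controls; GEO's platform annotation named 34945 to 1 gene and 932 to several, and 9160 were unnamed here. Each gene was represented by its probe set of highest 6-array mean, giving 18193 genes.

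All 6 arrays entered 1 linear model with 3 group means (limma 3.58.1, R 4.3.3, lmFit and eBayes, 3 residual degrees of freedom and a prior of 2.18), tested two-sided with Benjamini-Hochberg adjustment over all genes and a threshold of 0.05. Groups followed the source name. The script was tested on simulated data. The members and gene lists were chosen with earlier results of these data known. All 6 members are named; for each, the 4 genes most correlated with it over the arrays are named, and up to 4 called genes with the largest difference per list and comparison. List counts cover the genes matched to a probe set of their own; other listed genes were not analysed here. Promoter windows were matched by symbol for 6 of 6 members. Alternatives were the titles' grouping, arrays left out, a replicate block, 2-group fits, averaged probe sets, a second quantile normalization, a filter on low values (mean of at least 6) and an intensity trend; single probe sets and the alternatives for the lists were added after seeing the data.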

Additional observations from a re-analysis of the deposited data

How the results depend on the processing

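Of 264 member differences recomputed under the alternatives, 223 kept their direction and side of the threshold, 16 lost a call, 9 gained one and 16 changed sign, 10 of these with the groups given by the titles. With those groups the differences between neonatal cardiomyocytes and fibroblasts were −1.48 for Myh6, −3.23 for Myh7, −2.11 for Myl2, −2.14 for Myl3, −1.39 for Myl4 and −1.52 for Myl7. Myh7 was 1.83 between the ages, and adult cells differed from fibroblasts by −1.40 for Myh7, −1.95 for Myl4 and −2.24 for Myl7. Without both neonatal replicate 1 arrays the last 2 were −0.63 and −0.88, and without single arrays they ranged from −1.56 to 3.31 and from −1.78 to 3.19. The within-array contrast Myh6 minus Myh7 between adult cells and fibroblasts (0.04) became −0.50 without both neonatal replicate 1 arrays, −0.16 with a second quantile normalization, and −0.50 to 0.58 without single arrays. Between the neonatal cell types it was 1.76 with the titles' groups. Myl4 minus Myl3 was then 0.75, 0.29 without both neonatal replicate 1 arrays, and −0.95 to 0.031 without single arrays; Myl7 minus Myl2 ranged from −0.063 to 0.85. The cause was not tested.

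The count of genes called between the neonatal cell types (149) was 0 with the titles' groups, without both neonatal replicate 1 arrays, with the replicate block and with only the 2 groups (limma passed 232, 1461, 3678 and 2532 at unadjusted p under 0.05). It was 59 with averaged probe sets, 384 with the filter on low values, 248 with an intensity trend, and 0 to 437 without single arrays. Between the ages (418) it was 114 with the titles' groups, 0 without both neonatal replicate 1 arrays (3845 at unadjusted p under 0.05), 164 with only the 2 groups, and 0 to 164 without single arrays. For adult cells against fibroblasts (3829) it was 137 with the titles' groups, 717 without both neonatal replicate 1 arrays, and 0 to 3823 without single arrays. The members called there (2) were 0 with the titles' groups and with a second quantile normalization, 1 without both neonatal replicate 1 arrays and with only the 2 groups, and 0 to 3 without single arrays. Between the neonatal cell types (0) they were 0 to 3.

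Same-numbered arrays shared part of their deviations: replicate 1 minus replicate 2 correlated across genes at 0.183, 0.268 and 0.207 between the groups. With 2 numbers this does not establish a pairing. With the replicate block the members called stayed at 0, 0 and 2. Between the neonatal cell types the replicate block ended the calls of Myh8 (limma adjusted p = 0.0537), Smyd1 and Unc45b (0.0595 each) and Fbxo32 (0.0553).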
